A study of Homo sapiens with 2 samples.

Results

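The genes described here are the ephrin, semaphorin and SLIT guidance genes of human liver progenitors: the Eph receptors and ephrin ligands, the semaphorins of classes 3 to 7 with their plexin and neuropilin receptors, and the SLIT ligands with their ROBO receptors. The rule picks protein-coding genes of these families by symbol and uses no measured value, although it was written with earlier results of these data known. The rule found 61 of the 57158 genes in the expression table, which holds 19344 protein-coding symbols. They comprise 14 Eph receptors, 9 ephrin ligands, 20 semaphorins, 9 plexins, 2 neuropilins, 4 ROBO receptors and 3 SLIT ligands. One of the ephrin entries, EFNA4-EFNA3, is a readthrough transcript of neighbouring genes.

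The cells were derived from CyT49, a human embryonic stem cell line. At day 2 they had become definitive endoderm, the embryonic source of the liver and of the lining of the gut. For the next 6 days they were grown in suspension with BMP4 at 50 ng/ml, FGF2 at 10 ng/ml and 0.2% serum (FBS), and RNA was taken at day 8. There were 2 libraries of this 1 group and no other group, so levels are given within it, with no comparison over time or treatment.

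The unit is RPKM, in which reads are scaled to gene length and to sequencing depth, so levels of genes of different length can be set side by side. Every value under 0.5 RPKM was listed as 0.1, here called the floor. Detection means at least 1 RPKM in each library. From the spacing of low values of genes with a single exon, the depth used for scaling was 25183080 reads in library 1 and 25264560 reads in library 2, and 1 RPKM over 2000 bp stood for 50.4 and 50.5 reads. The libraries differed by 1.07 times the variance that counting alone gives, over 780 single-exon genes with a mean of 50 reads or more. This ratio was 1.01 at 20 reads or more (1232 genes) and 1.15 at 100 reads or more (434 genes). It thus rose with read number, and a small spread beyond counting may be present. As the ratios were near 1, the libraries were counted as 1 sample, both values are printed and no SD is given. No label tells if they are separate cultures, so the gap between them may be technical only.

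Eph receptors are receptor tyrosine kinases that bind ephrins on the neighbouring cell, and both partners can signal. Semaphorins are secreted or membrane-bound ligands of plexins, with neuropilins as co-receptors for most class 3 members, and plexins act on small GTPases and the cytoskeleton. SLITs are large secreted proteins that repel cells bearing ROBO receptors. These families are known from growing axons and also shape epithelia, vessels and the migration of progenitors. Eph, plexin and ROBO genes are used in developing endodermal organs.

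The label of liver progenitor was set against marker genes. All 12 of 12 markers of hepatoblasts and liver endoderm were detected, with a median of 266 RPKM, among them AFP, the fetal serum albumin homologue, at 706.8 RPKM in library 1 and 705.0 RPKM in library 2. Of 11 neuronal markers, 2 were detected, TUBB3 at 39.24 and 39.98 RPKM and DCX at 1.68 and 1.49 RPKM, and the other 9 were at the floor, including ELAVL3, STMN2, SNAP25 and MAP2. Of 11 endothelial markers, 3 were detected, EGFL7 at 15.3 and 15.4 RPKM, ESAM at 5.52 and 5.99 RPKM and KDR at 1.603 and 1.610 RPKM, while CDH5, TEK, TIE1 and VWF were at the floor. The neuronal and endothelial lists were planned with 12 genes each. NEFL of the first and PECAM1 of the second found no match among the protein-coding genes, so their levels are unknown here. Of 12 mesenchymal and stellate markers, 6 were detected, led by RGS5 at 17.98 and 17.62 RPKM and followed by TAGLN, COL1A1 and COL1A2. COL3A1, DES, DCN and THY1 were at the floor. The summed levels in library 1 and library 2 were 5786 and 5775 RPKM for the hepatoblast list, 41.8 and 42.4 RPKM for the neuronal list, 23.2 and 23.8 RPKM for the endothelial list and 50.2 and 50.0 RPKM for the mesenchymal list. What share of the guidance transcripts came from cells other than hepatoblasts was not tested, and in bulk RNA a few cells with much transcript cannot be told apart from many cells with little.

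Most guidance genes were transcribed, at middle levels. Of the 61 genes, 44 (72.1%) were detected, against 59.8% of all protein-coding genes. At 10 RPKM or more in both libraries were 21 guidance genes (34.4%), against 20.2% of all protein-coding genes. Listed at the floor in each library were 10 guidance genes, against 33.8% of all protein-coding genes, and 7 lay between. The median level was 5.99 RPKM over the guidance genes and 2.42 RPKM over all protein-coding genes. Among detected genes alone the medians were 9.61 RPKM for guidance genes and 6.60 RPKM for protein-coding genes.

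No guidance gene was among the most abundant transcripts. The 90th percentile of the guidance genes, 19.8 RPKM, was close to the 19.4 RPKM of all protein-coding genes. The highest guidance gene, PLXNB2, averaged 39.8 RPKM and stood at rank 814 of the protein-coding genes, whose highest member reached 8095 RPKM. With the detection limit moved to 0.5, 2 and 5 RPKM, 50, 38 and 31 guidance genes passed (82.0%, 62.3% and 50.8%), against 65.1%, 52.3% and 35.4% of protein-coding genes. The share of guidance genes was thus above that of protein-coding genes at each of these limits. These are counts within 1 sample, and no test was made of them.

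**Figure D1:**
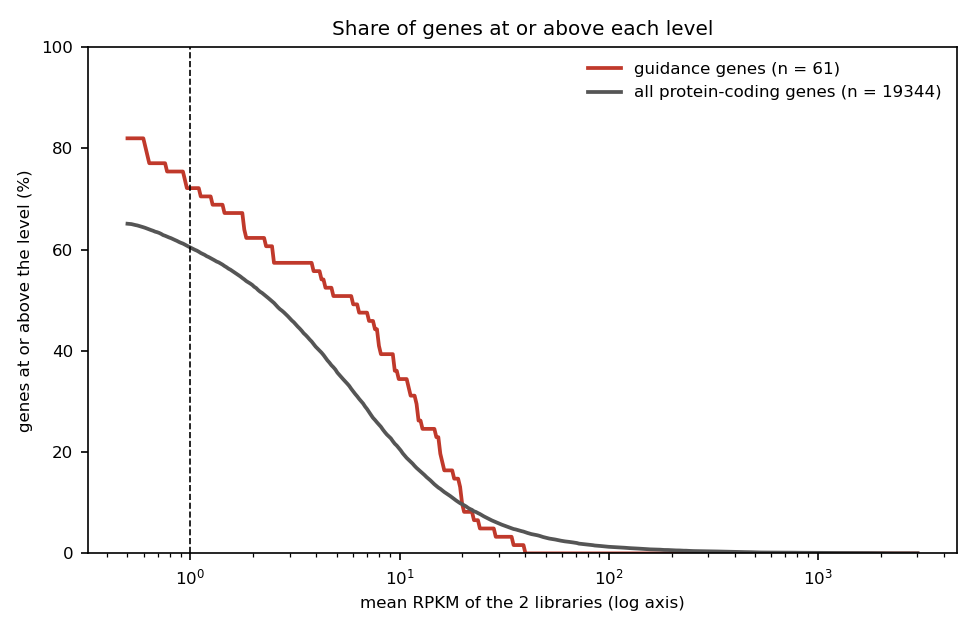
Share of genes (per cent) at or above each mean level (RPKM, log axis) for the 61 guidance genes and all 19344 protein-coding genes, with the limit of 1 RPKM dashed. The guidance curve lies above the other at low and middle levels and ends at 39.8 RPKM, where the protein-coding curve goes on.

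The whole set ran from PLXNB2 to the floor with no gap around the limit of 1 RPKM. Just inside it lay EPHA8, an A-class Eph receptor, at 1.16 and 1.06 RPKM. Just outside lay SEMA5A at 0.903 and 0.991 RPKM and NRP2 at 0.926 and 0.936 RPKM. The 10 genes at the floor were the receptors EPHA3, EPHA5, EPHA7, EPHA10, EPHB1, PLXNA4, PLXNB3 and ROBO4 and the secreted ligands SEMA3G and SLIT1. All 10 were thus receptors or secreted ligands, while each of the ephrins and of the 13 membrane semaphorins was above the floor in both libraries. At the floor were 5 of 14 Eph receptors, 2 of 9 plexins, 1 of 4 ROBO receptors and 2 of 10 secreted ligands. Among all protein-coding genes the share was 33.8%, so these small counts show no trait of receptors or secreted ligands. In the order of the 44 detected genes, 13 of 43 neighbours had library ranges that overlapped, so the order of those neighbours is not settled. For the others, a lack of overlap between 2 libraries counted as 1 sample does not by itself settle the order.

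**Figure D2:**
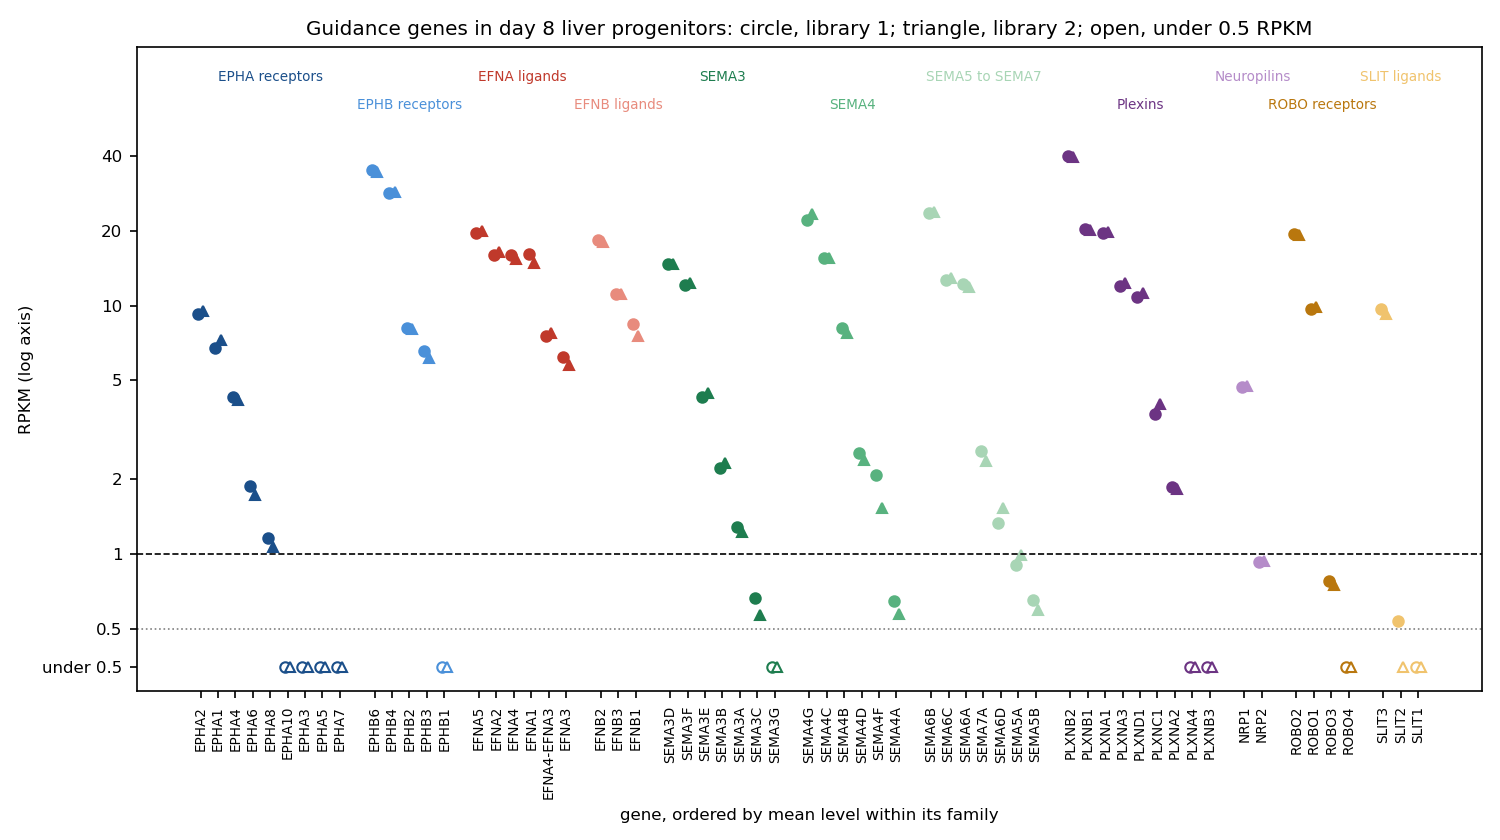
Level of each of the 61 guidance genes (RPKM, log axis) in library 1 (circles) and library 2 (triangles), grouped by family and ordered by mean level, with the limit of 1 RPKM dashed, 0.5 RPKM dotted and open symbols for values under 0.5. The ephrin ligands all stand at 5.75 RPKM or more, while 5 of the 14 Eph receptors have open symbols in both libraries.

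The sequence at the start of the genes was read to set the 10 genes at the floor beside the detected ones. The window ran from 250 bases before to 50 bases after the start of the canonical GENCODE transcript on GRCh37. The CpG ratio is the observed number of CG dinucleotides over the number expected from the C and G content, and 0.6 is a usual lower limit for a CpG island. The windows of 3 genes are shown 5′ to 3′ on the strand of the gene, with each CG in capitals: a detected receptor, a floor gene with many CG and a floor gene with few. EPHB4 lies at chr7:100425096-100425395 on the minus strand, SLIT1 at chr10:98945667-98945966 on the minus strand and SEMA3G at chr3:52479070-52479369 on the minus strand.
EPHB4: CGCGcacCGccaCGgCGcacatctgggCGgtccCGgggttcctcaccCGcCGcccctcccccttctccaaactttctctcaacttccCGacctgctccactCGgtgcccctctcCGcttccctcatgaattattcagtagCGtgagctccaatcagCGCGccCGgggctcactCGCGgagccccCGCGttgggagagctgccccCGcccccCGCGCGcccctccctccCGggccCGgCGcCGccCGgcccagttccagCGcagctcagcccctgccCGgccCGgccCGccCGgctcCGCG
SLIT1: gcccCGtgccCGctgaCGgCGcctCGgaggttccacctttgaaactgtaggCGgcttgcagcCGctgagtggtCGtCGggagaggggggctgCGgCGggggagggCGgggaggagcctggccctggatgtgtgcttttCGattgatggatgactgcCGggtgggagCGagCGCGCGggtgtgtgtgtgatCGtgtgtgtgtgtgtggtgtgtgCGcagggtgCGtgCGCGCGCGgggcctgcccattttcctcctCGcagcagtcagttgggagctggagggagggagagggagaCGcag
SEMA3G: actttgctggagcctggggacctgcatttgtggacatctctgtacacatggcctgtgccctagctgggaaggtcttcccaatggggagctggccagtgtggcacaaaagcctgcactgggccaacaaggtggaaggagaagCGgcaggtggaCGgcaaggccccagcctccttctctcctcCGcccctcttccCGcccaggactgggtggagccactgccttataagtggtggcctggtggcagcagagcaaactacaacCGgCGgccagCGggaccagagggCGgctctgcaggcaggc
EPHB4 had 36 CG and a ratio of 0.97, SLIT1 had 27 CG and a ratio of 0.88, and SEMA3G had 8 CG and a ratio of 0.27. SLIT1 and SEMA3G were both at the floor, so a dense and a sparse window each occurred at that level.

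A median CpG ratio of 0.66 was found over the 10 guidance genes at the floor, and 6 of them reached 0.6 (60.0%), against a median of 0.35 and a share of 34.1% over the 6364 protein-coding genes at the floor. Over the 44 detected guidance genes the median was 0.76 and 35 reached 0.6 (79.5%), against 0.86 and 87.9% over 11491 detected protein-coding genes. The 2 states of guidance genes thus lay closer together than the 2 states of protein-coding genes. The ratio depends on the annotated start: 10 of the 55 guidance genes with windows in the RefSeq promoter table had windows on both sides of 0.6. A gene with a single RefSeq window could not enter this count, even where that window and the GENCODE start lay on different sides. EPHB6 had a ratio of 0.90 at the GENCODE start and 0.17 in its RefSeq window. PLXNB1 had a ratio of 0.26 at the GENCODE start, and its RefSeq windows had 0.26 and 0.99. Genes in one family share ancestry and are not independent, and no test was made.

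**Figure D3:**
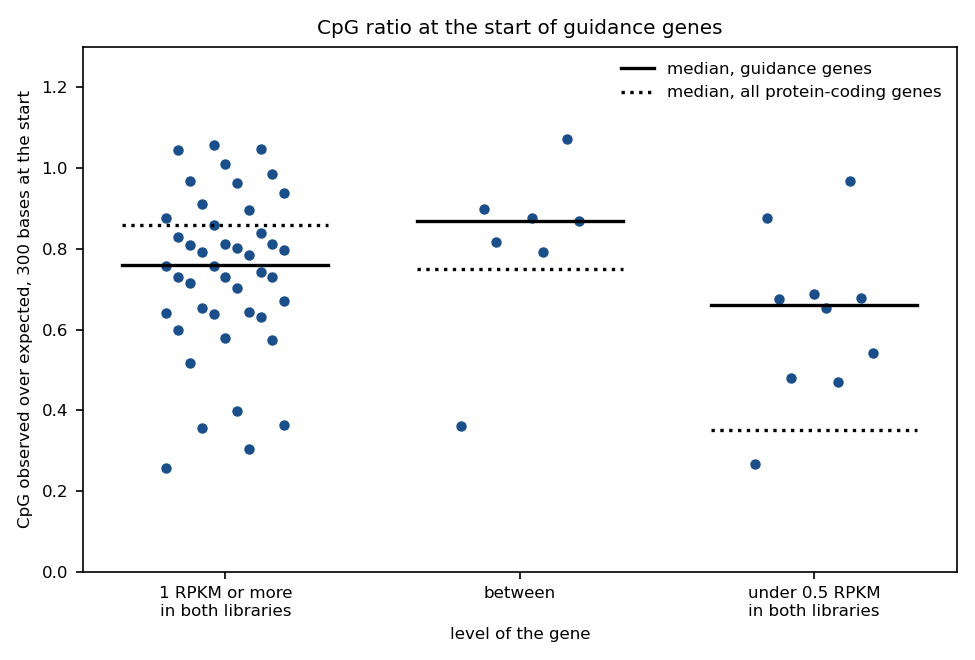
CpG observed over expected in the 300 bases at the start of each guidance gene (points), by level: 1 RPKM or more in both libraries, between, and under 0.5 RPKM in both. Solid lines are medians of guidance genes (0.76, 0.87 and 0.66) and dotted lines are medians of all protein-coding genes (0.86, 0.75 and 0.35), and the solid line exceeds the dotted one in the last group by the most.

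All 9 of 9 ephrin ligands were detected, or 8 of 8 without the readthrough entry, against 59.8% of all protein-coding genes. Their levels ran from 5.99 to 19.8 RPKM with a median of 15.4 RPKM. The A-class ephrins are held on the membrane by a lipid anchor. EFNA5 led them at 19.59 RPKM in library 1 and 20.05 RPKM in library 2 (chr5:106712595-107006638, minus strand, on GRCh37, as for all gene positions given). EFNA2 had 16.0 and 16.4 RPKM (chr19:1285872-1301430, plus strand). EFNA4 had 15.9 and 15.4 RPKM, and EFNA1, the main ligand of EPHA2, had 16.1 and 14.8 RPKM. EFNA4 and EFNA1 had overlapping library ranges, so their order is not settled. EFNA3 was lowest at 6.23 and 5.75 RPKM.

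The genes EFNA4, EFNA3 and EFNA1 lie together on chromosome 1. EFNA4 spans chr1:155036213-155042029, EFNA3 spans chr1:155051313-155060014 and EFNA1 spans chr1:155100352-155107375, all on the plus strand. The readthrough entry EFNA4-EFNA3 had 7.52 and 7.74 RPKM. It shares 853 exonic bases with EFNA3 and 189 with EFNA4, so its level and that of EFNA3 depend on how shared reads were assigned and are uncertain.

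The B-class ephrins span the membrane and carry a cytoplasmic tail that signals in reverse. EFNB2, the ligand of EPHB4 in arteries and veins, had 18.3 and 18.1 RPKM (chr13:107142093-107188010, minus strand). EFNB3 had 11.2 and 11.1 RPKM. EFNB1 had 8.40 and 7.52 RPKM and was 1 of 3 genes whose libraries differed by more than 2 counting errors. EFNB2 thus made up 48.4% of the summed B-class level in library 1 and 49.3% in library 2.

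Of the Eph receptors, 9 of 14 (64.3%) were detected and 5 were at the floor. Both shares were near those of all protein-coding genes, 59.8% and 33.8%. The B class held the high levels. EPHB6, which has lost kinase activity, had 35.1 and 34.6 RPKM and ranked 940 among protein-coding genes (chr7:142552823-142568847, plus strand). EPHB4, whose chief ligand is EFNB2, had 28.4 and 28.7 RPKM and ranked 1212 (chr7:100400187-100425145, minus strand). EPHB2 had 8.14 and 8.06 RPKM, EPHB3 had 6.57 and 6.14 RPKM, and EPHB1 was at the floor. EPHB6 and EPHB4 together made up 62.3% of the summed level of all Eph receptors in library 1 and 62.2% in library 2.

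No A-class receptor reached 10 RPKM. EPHA2, an epithelial receptor of EFNA1, had 9.21 and 9.55 RPKM (chr1:16450832-16482564, minus strand). EPHA1, the founding member of the family, had 6.74 and 7.25 RPKM. EPHA4, which binds ephrins of both classes, had 4.27 and 4.15 RPKM. These 3 carried most of the class, since EPHA6 had only 1.88 and 1.72 RPKM and EPHA8 lay at the limit. EPHA3, EPHA5, EPHA7 and EPHA10, the last of which lacks kinase activity, were at the floor. The summed A-class level was 23.7 RPKM in library 1 and 24.1 RPKM in library 2, against 78.4 and 77.7 RPKM for the B class. The ligands ran the other way: the A-class ephrins summed to 81.4 and 80.1 RPKM with the readthrough entry, or 73.8 and 72.4 RPKM without it, and the B-class ephrins to 37.9 and 36.7 RPKM. In the order of the detected receptors, no neighbours had library ranges that overlapped, which does not by itself settle the order.

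Eph receptors are the largest family of receptor tyrosine kinases, so they were set beside the other 44 genes of that class. That list was drawn up after the levels had been seen. Of the Eph receptors, 64.3% were detected with a median of 3.0 RPKM, against 27 of 44 (61.4%) and 2.87 RPKM for the other receptor tyrosine kinases. Counts and medians of the groups were thus close, and both shares were near the 59.8% of all protein-coding genes. The highest of the others were the FGF receptors FGFR3 at 66.3 and 66.6 RPKM, FGFR4 at 49.4 and 50.1 RPKM and FGFR1 at 41.2 and 40.9 RPKM, each above EPHB6.

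Semaphorins were detected in 15 of 20 cases, with a median of 2.48 RPKM. The 13 membrane-bound genes of classes 4 to 7 had a median of 2.48 RPKM and summed to 104.9 and 105.2 RPKM. The 7 secreted class 3 genes had a median of 2.27 RPKM and summed to 35.4 and 35.6 RPKM, so the medians were close. SEMA6B was highest at 23.7 and 23.8 RPKM (chr19:4542605-4581788, minus strand). SEMA4G, a ligand of PLXNB2, had 22.0 and 23.3 RPKM (chr10:102729261-102745628, plus strand). SEMA4C, another ligand of PLXNB2, had 15.5 RPKM in both libraries (chr2:97525455-97536494, minus strand). SEMA6C followed at 12.7 and 12.9 RPKM and SEMA6A at 12.2 and 11.9 RPKM, so 3 of the 4 class 6 genes exceeded 10 RPKM.

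The level of SEMA4G needs a limit. It shares 1215 exonic bases with MRPL43, a mitochondrial ribosomal protein gene on the opposite strand with 12.3 and 12.4 RPKM. The libraries were made to keep the strand, but whether the counting used it is not stated, so reads of the 2 genes may have been pooled. The same holds on a smaller scale for EPHA1, which shares 82 exonic bases with ZYX at 37.3 RPKM in both libraries, for PLXNC1 with 177 bases shared with CEP83, and for EPHB4 with 69 bases shared with SLC12A9. SLIT3 shares 334 exonic bases with an unnamed noncoding gene on the opposite strand, which had 0.74 and 0.63 RPKM. The 12 antisense genes named for a guidance gene were all listed at the floor. So were most genes of any type, 39548 of 57158 in library 1 and 39542 in library 2.

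The remaining class 4 to 7 genes were lower. SEMA4B had 8.10 and 7.76 RPKM. SEMA4D, the ligand of PLXNB1 known from the immune system, had 2.55 and 2.39 RPKM. SEMA7A, which has a lipid anchor and binds PLXNC1, had 2.60 and 2.36 RPKM, and the library ranges of these 2 genes overlapped. SEMA4F had 2.08 and 1.53 RPKM and SEMA6D had 1.33 and 1.53 RPKM. SEMA5A lay just under the limit, SEMA5B had 0.651 and 0.596 RPKM and SEMA4A had 0.645 and 0.570 RPKM, so no class 5 gene was detected.

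Within class 3, a pair of genes held most of the level. SEMA3D had 14.7 RPKM in both libraries (chr7:84624869-84816372, minus strand). SEMA3F, a ligand that prefers NRP2, had 12.1 and 12.3 RPKM (chr3:50192478-50226508, plus strand). SEMA3D made up 41.6% of the class in library 1 and 41.2% in library 2, and SEMA3F made up 34.3% and 34.5%. SEMA3E, which binds PLXND1 without a neuropilin, had 4.28 and 4.44 RPKM. SEMA3B had 2.22 and 2.31 RPKM and SEMA3A, the first repellent described in the class, had 1.28 and 1.23 RPKM. SEMA3C had 0.665 and 0.567 RPKM and SEMA3G was at the floor, which leaves 5 of 7 genes detected. SEMA3A, SEMA3C, SEMA3D and SEMA3E lie along chromosome 7 between 80371854 and 84816372, and their levels ran from under the limit to 14.7 RPKM.

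Plexins were detected in 7 of 9 cases, 5 of them at 10 RPKM or more, and their median was 11 RPKM. Of all protein-coding genes, 59.8% were detected and 20.2% had 10 RPKM or more in both libraries. The B plexins were highest. PLXNB2 had 40.2 and 39.5 RPKM (chr22:50713408-50746075, minus strand). PLXNB1, the receptor of SEMA4D, had 20.3 and 20.1 RPKM (chr3:48445261-48471495, minus strand). PLXNB3 was at the floor. PLXNB2 alone made up 37% of the summed plexin level in library 1 and 36.3% in library 2.

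The A plexins signal for class 3 semaphorins with neuropilins and bind class 6 semaphorins directly. PLXNA1 had 19.5 and 19.7 RPKM (chr3:126701536-126756232, plus strand). PLXNA3 had 11.96 and 12.30 RPKM (chrX:153686621-153706118, plus strand). PLXNA2 had 1.86 and 1.82 RPKM and PLXNA4, the partner of SEMA6A and SEMA6B, was at the floor. A plexins therefore summed to 33.4 and 33.9 RPKM, against 60.5 and 59.7 RPKM for the B plexins. PLXND1, the receptor of SEMA3E, had 10.8 and 11.2 RPKM, and PLXNC1, the receptor of SEMA7A, had 3.66 and 4.01 RPKM. Of the neuropilins, NRP1 had 4.71 and 4.74 RPKM and NRP2 lay just under the limit, so NRP1 made up 83.6% of their sum in library 1 and 83.5% in library 2.

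SLIT and ROBO genes were detected in 3 of 7 cases (42.9%), against 59.8% of all protein-coding genes. This was the lowest share of the 5 groups of ligands and receptors at the limit of 1 RPKM. At 5 RPKM it was 3 of 7 again, beside 6 of 14 Eph receptors, 8 of 20 semaphorins and 35.4% of all protein-coding genes. ROBO2 had 19.5 and 19.3 RPKM (chr3:75955846-77699115, plus strand). ROBO1 had 9.70 and 9.84 RPKM (chr3:78646389-79817148, minus strand). ROBO2 made up 64.8% of the summed ROBO level in library 1 and 64.4% in library 2. ROBO3, which in mammals has lost high-affinity SLIT binding, had 0.775 and 0.747 RPKM. ROBO4, the endothelial member, was at the floor, as were 8 of the 11 endothelial markers, while EGFL7, ESAM and KDR were detected at the levels given above.

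Among the ligands only SLIT3 was detected, at 9.65 and 9.24 RPKM (chr5:168088745-168728143, minus strand). SLIT2 had 0.535 RPKM in library 1 and was under 0.5 RPKM in library 2. SLIT1 was at the floor in both, while ARHGAP19-SLIT1, a readthrough entry that shares 216 exonic bases with it, had 1.19 and 1.13 RPKM beside 6.17 and 6.34 RPKM for ARHGAP19. The order ROBO2, ROBO1, SLIT3 was the same in both libraries. In library 1, however, ROBO1 had 9.70 RPKM beside 9.65 RPKM for SLIT3. That gap is small beside their counting errors of 0.05 and 0.04 on the log2 scale, so the order of these 2 is not settled.

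SLIT2 and SLIT3 each carry a copy of the gene for the microRNA miR-218 in an intron, and this microRNA is known to repress ROBO1. Its mature form is shown with its seed, bases 2 to 8, in capitals, as RefSeq gives it, and is followed by 29-base windows around matches to the seed in the 3′ UTRs of ROBO1, ROBO2 and SLIT3, with the match in capitals. The match searched for was AAGCACA on the transcript strand of the canonical 3′ UTR, the reverse complement of the seed. Windows are on GRCh37, with matches at chr3:78647086-78647092 (minus strand) in ROBO1, chr3:77695662-77695668 and chr3:77698107-77698113 (plus strand) in ROBO2 and chr5:168090657-168090663 (minus strand) in SLIT3.
hsa-miR-218-5p: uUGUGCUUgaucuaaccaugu
ROBO1: tttggttttaaAAGCACAatcactaaact
ROBO2, first match: tatttggtgatAAGCACAaatctctactc
ROBO2, second match: atgtccaatacAAGCACAgcttcattcat
SLIT3: aagagtatgggAAGCACActgaggagcag
Each of the 3 detected SLIT and ROBO genes thus held at least 1 match, and SLIT2, which was not detected, held 2. The copies MIR218-1 and MIR218-2 were at the floor, but poly(A) libraries do not measure mature microRNAs, so the level of miR-218 is unknown. All 17 microRNA genes inside guidance genes were at the floor, as were most genes of any type, 39548 of 57158 in library 1. Their floor values therefore say nothing about the mature microRNAs.

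Over all guidance genes, 18 of 61 (29.5%) held the match, against 2647 of 18724 protein-coding genes (14.1%). Their 3′ UTRs were also longer, with a median of 1674 bases against 1088 bases. Among UTRs over 3000 bases, 10 of 21 guidance genes (47.6%) held the match, against 38.1% of protein-coding genes. Over 1000 and up to 3000 bases the shares were 7 of 22 (31.8%) and 15.9%. Up to 1000 bases they were 1 of 18 (5.6%) and 3.5%. Within each range of length the share was higher among guidance genes, on small counts and with no test. Among detected genes, 11 of 44 guidance genes (25.0%) held the match, against 15.3% of protein-coding genes. Of the 11 detected genes with a match, EPHB2 held 3, ROBO2, EFNB2 and SEMA6A held 2 each, and SEMA6B, PLXNA3, PLXND1, ROBO1, SLIT3, PLXNC1 and EPHA8 held 1 each. A match is a description of the sequence and not a shown target site.

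Ligands and receptors were also read as pairs. The 37 pairs were taken from textbook knowledge of binding and are not exhaustive. In 22 of 37 pairs both genes were detected, in 7 the ligand alone, in 6 the receptor alone and in 2 neither. Taken singly, 44 of the 61 guidance genes (72.1%) were detected, against 59.8% of all protein-coding genes. Several genes recur in the pairs. Whether partners were detected together more often than other genes was not tested. Ordered by the lower partner, the highest pairs were SEMA4G with PLXNB2, EFNB2 with EPHB4 and SEMA4C with PLXNB2. EFNB2 had 18.3 and 18.1 RPKM beside 28.4 and 28.7 RPKM for EPHB4. EFNA1 with EPHA2 and SLIT3 with ROBO1 were further pairs detected on both sides, the second at nearly equal level.

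Some ligands were detected while their receptor was at the floor or just under the limit. EFNA5 was detected while EPHA3 and EPHA7 were at the floor, EFNB1 while EPHB1 was at the floor, and SEMA6A and SEMA6B while PLXNA4 was at the floor. SEMA3F and SEMA3B were detected while NRP2 lay just under 1 RPKM. In the opposite case the receptor was detected and the ligand was under 1 RPKM, which is not absence. ROBO1 was detected while SLIT1 and SLIT2 were not, ROBO2 while SLIT2 was not, NRP1 while SEMA3C was not, PLXND1 while SEMA4A was not and PLXNA2 while SEMA5A was not. SEMA5A (0.903 and 0.991 RPKM), SEMA3C (0.665 and 0.567 RPKM) and SEMA4A (0.645 and 0.570 RPKM) were above the floor in both libraries. EFNA5, EFNB1, SEMA6A, ROBO1, NRP1, PLXND1 and PLXNA2 each had another detected partner in the list of pairs. SEMA3F, SEMA3B, SEMA6B and ROBO2 had none in that list, which is not exhaustive and can miss detected partners. ROBO2, for example, is known to bind SLIT3 as well. RNA levels of partners do not show that the proteins met.

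**Figure D4:**
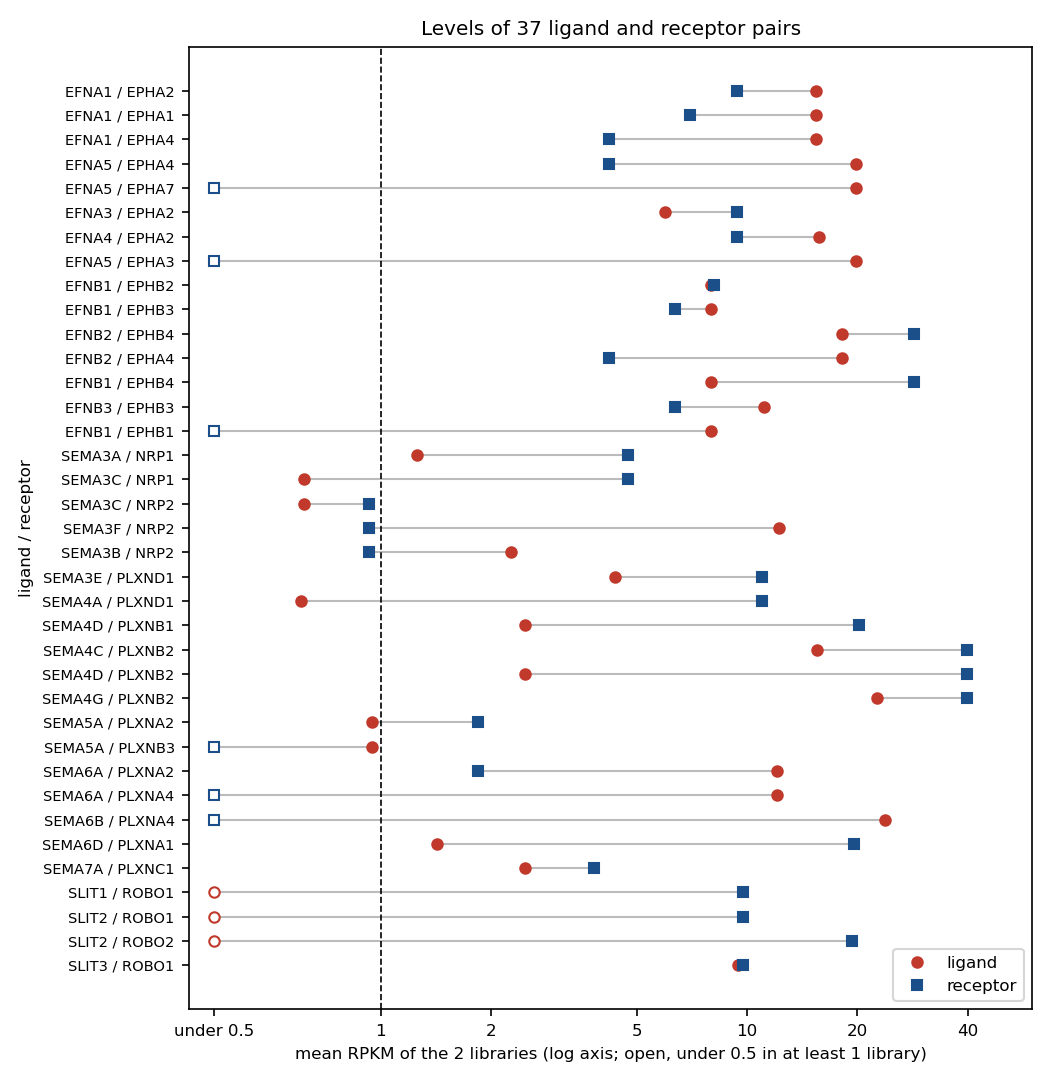
Mean level of the 2 libraries (RPKM, log axis) of the ligand (circle) and the receptor (square) of 37 pairs joined by lines, with the limit of 1 RPKM dashed and open symbols for genes under 0.5 RPKM in at least 1 library. In 22 pairs both symbols lie to the right of the limit, and the open squares belong to EPHA7, EPHA3, EPHB1, PLXNB3 and PLXNA4.

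Further guidance families were read beside these. Of 21 other axon guidance ligands and receptors, 9 (42.9%) were detected, against 59.8% of all protein-coding genes. At the floor were 9, and the median was 0.33 RPKM. FLRT3, an adhesion protein that binds UNC5 receptors and latrophilins, had 68.8 and 69.3 RPKM. Its relative FLRT2 had 39.7 and 38.5 RPKM. NEO1, a receptor of repulsive guidance molecules, had 22.7 and 22.4 RPKM, and UNC5B, a netrin receptor, had 10.9 and 10.4 RPKM. FLRT3 was thus above every ephrin, semaphorin and SLIT family gene. The classical netrin receptor DCC, NTN1, NTN3, NTNG1, NTNG2, UNC5C, L1CAM, FLRT1 and HJV were at the floor.

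Effectors and other partners of the receptors and ligands were mostly detected. All 19 of 19 semaphorin and plexin effectors were detected, with a median of 4.22 RPKM. Among them were DPYSL3, a collapsin response mediator, at 25.6 and 25.7 RPKM, ERBB2, a kinase that associates with B plexins, at 16.3 and 16.2 RPKM, MICAL1, an oxidase of actin that binds A plexins, at 13.6 and 14.0 RPKM, and GIPC1, an adaptor of NRP1, at 13.5 RPKM in both libraries. SLIT and ROBO effectors were detected in 16 of 17 cases, with a median of 11.7 RPKM. Their highest were DAG1, dystroglycan, which binds SLIT, at 52.0 and 52.2 RPKM, ENAH at 26.0 and 26.7 RPKM, ABL1, which phosphorylates ROBO, at 24.4 and 24.3 RPKM, and VASP at 21.2 and 20.5 RPKM. The exception, SRGAP3, a GTPase-activating protein that binds ROBO, had 1.01 and 0.953 RPKM and was named after its values were seen. SLIT and ROBO effectors were thus nearly all detected, beside 3 of 7 of their ligands and receptors and 59.8% of all protein-coding genes. The effector lists were chosen with earlier results of these data known, and no test was made.

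Eph and ephrin effectors were detected in 13 of 17 cases (76.5%), against 59.8% of all protein-coding genes, with a median of 6.36 RPKM. The adaptor NCK2 had 38.2 and 38.9 RPKM. INPPL1, a lipid phosphatase that binds EPHA2, had 33.8 and 33.3 RPKM. VAV2, a guanine nucleotide exchange factor, had 19.2 and 18.7 RPKM, and the phosphatase ACP1 had 16.9 and 16.5 RPKM. EPS8, SH2D3C and VAV3 were at the floor, and ARHGEF15, named after its values were seen, had 0.608 and 0.594 RPKM. Many of these effectors serve other receptors as well, so their levels do not bear on guidance signalling alone.

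Differences between the libraries were small. Of the 50 guidance genes above the floor in both libraries, 29 were higher in library 1 and 21 in library 2, with a median absolute difference of 3.2%. Read numbers were estimated from RPKM and the length of the canonical transcript, and ran from 135 to 6481 reads for detected genes in single libraries. The difference was within 2 counting errors for 47 of the 50 genes. The other 3 were SEMA4F, with a log2 ratio of library 2 over library 1 of -0.44 (counting error 0.12), EFNB1 with -0.16 (0.08) and SEMA4G with 0.08 (0.04). EFNB1 and SEMA4G lay only just beyond 2 counting errors. SEMA4F is a low gene, and SEMA4G shares exons with MRPL43. Among 50 genes a few can pass 2 counting errors by counting alone, and whether these 3 differed for another reason was not tested.

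**Figure D5:**
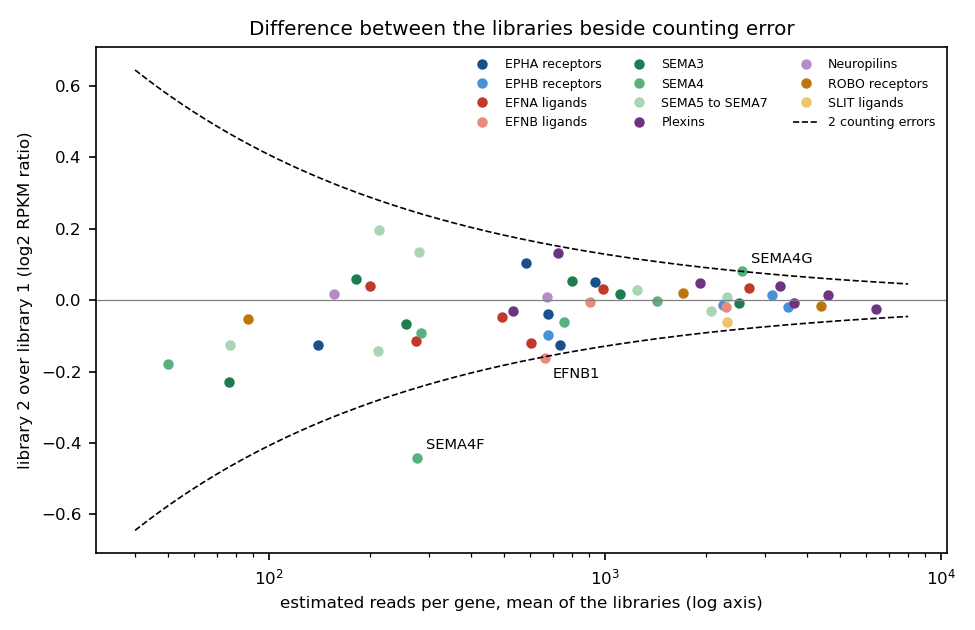
Log2 ratio of library 2 over library 1 against the estimated number of reads per gene (log axis) for the 50 guidance genes above the floor in both libraries, coloured by family, with dashed lines at 2 counting errors. Of these genes 47 lie between the lines, and SEMA4F, EFNB1 and SEMA4G lie outside.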

How the data were processed

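Poly(A) RNA (from 2 µg of total RNA) of 1 group was sequenced in 2 strand-specific libraries, per the labels' protocols. The authors deposited 1 table of RPKM per gene and library, with values under 0.5 listed as 0.1. Per the submitters' processing notes, FastQC 0.10.1, STAR 2.3.0e, Cufflinks 2.2.0 and hg19 were used, and the series design text names Sailfish. The tool behind the RPKM, the annotation release and any use of strand: not given in the sources used here.

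Here identifiers were joined to GENCODE release 44 on GRCh37 (54428 matched, 95.2%). A symbol with several identifiers took the one of highest mean. Levels are RPKM or log2(RPKM + 1). The library comparison was tested on simulated data. Python 3.11.15, pandas 2.3.3 and numpy 2.4.6 were used. Members, lists, pairs and limits were chosen with earlier results of these data known. Any member, both genes of a pair, and the highest 4 and the floor genes of each list may be named. Other detection limits, pseudocounts, scalings and single libraries were tried. With 1 group, no comparison between conditions was made.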

Additional observations from a re-analysis of the deposited data

How the results depend on the processing

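For the summary counts and medians, 60 alternatives left a count within 1.5 times its value or a median within the spread of the libraries, and 9 moved it. That range is wide: at 5 RPKM the detected guidance genes went to 31 of 61 and the Eph receptors to 6 of 14 within it, and at 0.5 RPKM the pairs went to 28 of 37. At a limit of 5 RPKM, 8 of 20 semaphorins, 5 of 11 plexins and neuropilins, 37 of 74 other guidance and effector genes (57 at 1 RPKM) and 12 of 37 pairs passed. The median log2 level of 2.80 became 3.16 without the 10 genes at the floor, 2.61 with a pseudocount of 0.1 and 4.68 with protein-coding genes rescaled to a fixed sum. The medians of all protein-coding genes were 1.77 as reported and 2.75, 1.33 and 3.45 under these settings. Without the readthrough entry, an alternative chosen after seeing the data, the median was 2.66 over 60 genes. With the RefSeq window of highest ratio, also chosen after seeing the data, the median CpG ratio was 0.81 in place of 0.76. These shifts follow from how each setting is built. Some of the 60 unchanged results were also fixed in advance. No guidance gene has several identifiers, so summing identifiers could not change the guidance counts, the pairs or the median. Setting floor values to 0 could not move a median that lies above the floor.

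With either library left out, the 44 detected guidance genes stayed at 44, the other genes ran from 57 to 58 and the median log2 level from 2.76 to 2.85. For a single gene, leaving out a library returns the value of the other, so it tests nothing. No paired analysis was possible because there is only 1 group.

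Genes under 0.5 RPKM are limited by the deposited table, which lists them all as 0.1, and not by depth. By canonical length, 0.5 RPKM in library 1 stands for 54.1 reads on ROBO4 and 163.2 reads on PLXNA4, so the floor is not absence. RPKM uses 1 length per gene whatever the isoform, and readthrough and overlapping genes can shift single levels. Protein sequences were not analysed here.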
